A study of Mus musculus with 8 samples.

Results

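Small leucine-rich proteoglycans are secreted matrix proteins with a core of leucine-rich repeats, most of which carry chondroitin, dermatan or keratan sulfate chains. They bind collagen fibrils and set fibril diameter and spacing, and several of them hold growth factors such as TGF-β in the matrix or act on cell surface receptors. In skin they are made mainly by dermal fibroblasts, and decorin is the best known of them in the dermis. The 9 genes Dcn, Bgn, Lum, Fmod, Ogn, Aspn, Prelp, Omd and Podn were followed here, chosen by name as members of this family, out of 18138 gene symbols on the array. Earlier results of these data were known when they were chosen. All 9 were on the array, with 13 of its 25697 probes.

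The samples were primary skin fibroblasts of passage 1, taken from 8 mice whose RNA was hybridised to MouseRef-8 v2.0 beadchips of Illumina, with 1 array per mouse. 4 mice were of the conplastic strain C57BL/6J-mtALR/LtJ (Nd2-mutant: males 28 and 32, females 34 and 35), whose mitochondrial Nd2 gene, a subunit of respiratory chain complex I, carries a leucine to methionine exchange. The other 4 were of C57BL/6J-mtAKR/J (control: males 16 and 17, females 15 and 37), which is also conplastic. Both strains share the nuclear background C57BL/6J, all mice were 12 months old, and the cells had been grown in DMEM with serum and without any treatment. Each mouse gave 1 culture, so that the spread between mice includes the spread between cultures. Nd2 itself was not analysed here.

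The study asked how the Nd2 mutation alters gene expression of skin fibroblasts in aged mice. Values below are background-subtracted, quantile-normalized probe intensities, given per mouse and as mean ± SD (n = 4). Differences are on the scale of log2(intensity + 16), Nd2-mutant minus control, with the standard error (SE) from limma and a p-value adjusted over all 10414 tested probes by Benjamini-Hochberg. A probe was tested if its detection p-value was under 0.01 on all 4 arrays of at least 1 strain. Intensities of different probes cannot be compared with each other, since probes bind with different strength.

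Between 10973 and 11350 probes were detected on the Nd2-mutant arrays and between 10663 and 10837 on the control arrays, without overlap. The array of control mouse 15 stood apart, since its correlations with the other 7 averaged 0.934, against 0.963 to 0.974 for the rest. All 11 fibroblast marker genes found on the array (among them Col1a1, Pdgfra, Thy1 and Vim) were detected on all 8 arrays, with a summed intensity of 30374 to 37139 in Nd2-mutant and 28810 to 37608 in control mice. In RNA of whole cultures, fewer cells of a type and less RNA per cell cannot be told apart.

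Several members are neighbours in the genome. On the mouse assembly GRCm38.p6, Dcn and Lum lie side by side on chromosome 10 with no protein-coding gene between them, and the same holds for Aspn, Omd and Ogn on chromosome 13 and for Prelp and Fmod on chromosome 1. Bgn is on chromosome X and Podn on chromosome 4. RefSeq promoter sequences of this build, from 250 bases before to 50 bases after the annotated start site, were matched for 7 of the 9 members. None was at hand for Dcn and Lum, whose promoters were therefore not searched. The Aspn, Omd and Ogn promoters are shown because these neighbours ranged from not detected on any array to detected on all 8, and the Bgn promoter because it held the most matches to a motif searched here. Capitals mark TATAAA and GGGCGG, searched on both strands.
Aspn, chr13:49544193-49544492, plus strand: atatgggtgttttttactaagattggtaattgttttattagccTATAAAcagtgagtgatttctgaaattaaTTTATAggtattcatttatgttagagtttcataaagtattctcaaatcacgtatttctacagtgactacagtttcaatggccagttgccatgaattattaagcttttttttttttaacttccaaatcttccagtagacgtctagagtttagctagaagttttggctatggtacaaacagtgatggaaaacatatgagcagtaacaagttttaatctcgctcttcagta
Omd, chr13:49582212-49582511, plus strand: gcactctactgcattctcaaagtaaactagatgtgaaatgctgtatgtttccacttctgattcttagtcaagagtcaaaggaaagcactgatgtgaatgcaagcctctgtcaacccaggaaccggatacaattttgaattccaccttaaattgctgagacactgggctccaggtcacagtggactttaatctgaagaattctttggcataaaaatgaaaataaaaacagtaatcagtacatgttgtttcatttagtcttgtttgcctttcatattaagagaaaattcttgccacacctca
Ogn, chr13:49607765-49608064, plus strand: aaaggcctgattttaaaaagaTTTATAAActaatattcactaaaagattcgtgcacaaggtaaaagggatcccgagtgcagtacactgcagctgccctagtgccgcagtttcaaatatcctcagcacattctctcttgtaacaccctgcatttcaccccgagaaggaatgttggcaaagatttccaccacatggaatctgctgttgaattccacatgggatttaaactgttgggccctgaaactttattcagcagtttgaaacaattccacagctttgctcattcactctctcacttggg
Bgn, chrX:73483351-73483650, plus strand: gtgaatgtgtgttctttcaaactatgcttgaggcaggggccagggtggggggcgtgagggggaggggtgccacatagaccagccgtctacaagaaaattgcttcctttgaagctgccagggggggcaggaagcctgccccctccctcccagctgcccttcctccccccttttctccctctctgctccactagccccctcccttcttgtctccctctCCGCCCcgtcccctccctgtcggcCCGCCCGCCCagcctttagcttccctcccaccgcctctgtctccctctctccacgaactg

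TATAAA, the core of the TATA box, was found at 2 positions in the Aspn promoter, 207 and 178 bases before the start site, and at 2 overlapping positions on opposite strands in the Ogn promoter, 229 and 227 bases before it. The Omd promoter held none. GGGCGG, the core of the GC box, was found at 3 positions in the Bgn promoter, all on the minus strand and the last 2 overlapping. It was also found at 2 positions in 1 of the 2 Podn promoters, and in no other member promoter that was searched. TGANTCA, the AP-1 motif, was in none of the 8 member promoters. Among 32851 promoters of the same length, 13.6% held TATAAA, 35.7% GGGCGG and 7.81% TGANTCA, so that these motifs are common letters and no more than a description.

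Of the 13 member probes, 11 passed the detection filter, and these belonged to 7 genes. Differences between the strains were largest for Lum and for 1 of 2 Dcn probes, both of which were higher in Nd2-mutant fibroblasts in every mutant mouse than in any control mouse. The strain means of Bgn and Prelp were in ratios of 1.001 and 1.030. Ogn and Podn varied widely between mice of the same strain, Fmod overlapped between the strains, Omd was detected on 6 arrays, and Aspn was not detected. Lum and Dcn ILMN_2596346 also varied between control mice (log2 SD 0.75 and 0.66), more than either Fmod probe. No member passed the adjusted threshold of 0.05.

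Decorin (Dcn), a class I member with a single glycosaminoglycan chain, was measured by 2 probes that the array annotation assigns to the same gene record. Probe ILMN_2596346 had intensities of 1642, 1676, 1609 and 2136 in Nd2-mutant mice 28, 32, 34 and 35. The control mice 15, 16, 17 and 37 had 1347, 544, 1500 and 851. All 4 mutant mice lay above all 4 controls, mouse 35 stood above the other mutants, and control mice 16 and 37 were the lowest. The means were 1766 ± 248 and 1061 ± 442, with a log2 difference of 0.82 (SE 0.28, 95% confidence interval 0.19 to 1.45, limma adjusted p = 0.639). The exact permutation test gave a 2-sided p = 0.0286, the smallest that 4 against 4 mice can give. Every probe without overlap, Lum among them, has this p, so that it adds nothing to the separation. Of all tested probes 4.37% had no overlap. Without control mouse 16 the difference was 0.54, less than the value over all mice by over 1.5 times.

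The other Dcn probe, ILMN_2747959, had intensities of 6942, 5719, 5761 and 6773 in the Nd2-mutant mice and of 9352, 3887, 6245 and 4871 in control mice 15, 16, 17 and 37. Here the strains overlapped, with the highest and the lowest value both among the controls, in mice 15 and 16. The fitted difference was 0.12 on the log2 scale (SE 0.24, 95% confidence interval -0.42 to 0.66, limma adjusted p = 0.883). The probes of the same gene therefore disagreed about the strains. The intensity of ILMN_2747959 divided by that of ILMN_2596346 was 3.17 to 4.23 in the mutants. In the controls it was 4.16 in mouse 17 and 5.72 to 7.15 in the other mice, so that only mouse 17 fell within the range of the mutants. The correlation between the 2 probes over 8 mice was r = 0.70. The deposited files used here hold no probe sequences, and which transcripts each probe binds was not tested.

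Biglycan (Bgn), the class I member closest to decorin, which is also a ligand of Toll-like receptors when released from the matrix, had a high intensity in every mouse. Its intensity was 10274, 10372, 12214 and 10747 in the Nd2-mutant mice and 11219, 10463, 11596 and 10274 in control mice 15, 16, 17 and 37. The strains overlapped, with a coefficient of variation of 6.57% over the 8 mice. For Bgn the log2 difference was 0.00 (SE 0.13, 95% confidence interval -0.28 to 0.28, limma adjusted p = 0.9995). On each array the probe ranked 5 to 18 of 25697 by intensity, close to the top of the normalized range at 13935. Quantile normalization leaves little room for values to vary there, so that the small spread is no measure of how steady Bgn was.

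Asporin (Aspn), a class I member of cartilage and periodontal ligament that lacks a glycosaminoglycan chain, was detected on 0 of 8 arrays. Its background-subtracted intensity lay between -2.39 and 8.77 and gives no level for these cells.

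**Figure D1:**
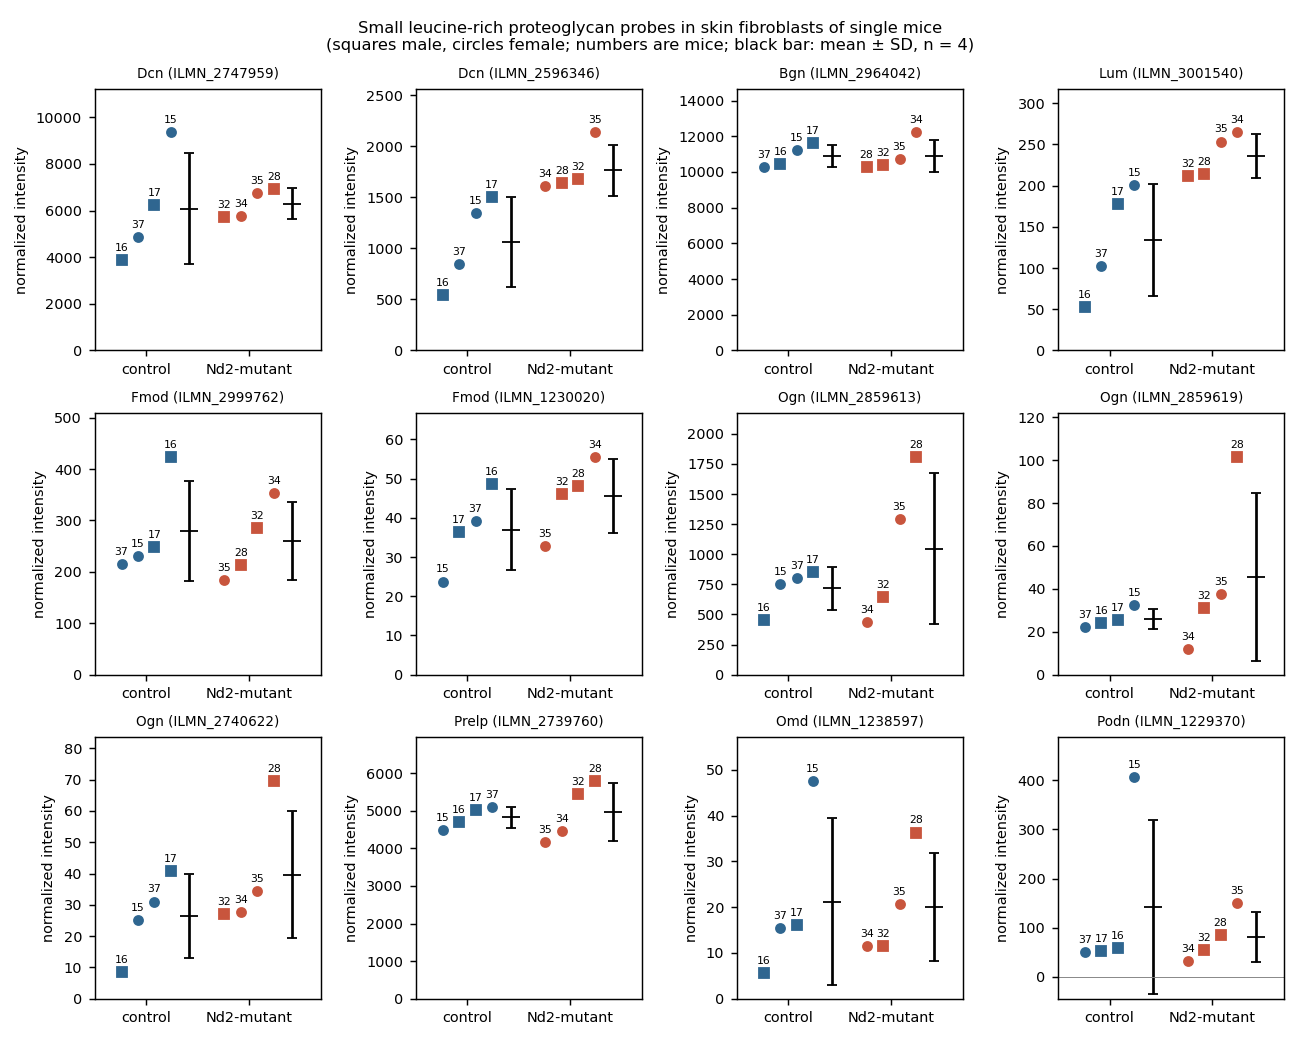
Normalized intensity (vertical axis, linear, a scale of its own for each probe) of the 12 member probes with a signal, for 4 control mice (blue) and 4 Nd2-mutant mice (red), sorted by value within each strain, with mean ± SD as the black bar, squares for males and circles for females. The red points lie above all blue points for Lum and Dcn ILMN_2596346, whereas for Podn a single control mouse, 15, reaches 406.

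Lumican (Lum), a class II member that regulates collagen fibril assembly and carries keratan sulfate in the cornea, had intensities of 214, 212, 265 and 254 in Nd2-mutant mice 28, 32, 34 and 35. Control mice 15, 16, 17 and 37 had 201, 53.1, 178 and 103. All mutants lay above all controls, although the highest control, mouse 15, was close to the lowest mutant, mouse 32. As for the first Dcn probe, mice 16 and 37 were the lowest. The means were 236 ± 27.0 and 134 ± 68.1, and the log2 difference was 0.88 (SE 0.31, 95% confidence interval 0.18 to 1.58, limma adjusted p = 0.639, exact permutation p = 0.0286). Leaving out control mouse 16 lowered the difference to 0.55.

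Fibromodulin (Fmod), a class II member that binds type I collagen and takes part in its cross-linking, was measured by 2 probes. Probe ILMN_2999762 had intensities of 214, 285, 353 and 185 in the Nd2-mutant mice and of 232, 424, 249 and 215 in control mice 15, 16, 17 and 37. Control mouse 16, the lowest for Lum and for both Dcn probes, was the highest here. For this probe limma gave a log2 difference of -0.09 (SE 0.25, limma adjusted p = 0.915). The second probe, ILMN_1230020, ranged from 32.8 to 55.6 in mutants and from 23.8 to 48.7 in controls, with a log2 difference of 0.23 (SE 0.18, limma adjusted p = 0.722). The strains overlapped for both probes, and the direction differed between them.

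Prelp, a class II member that links collagen to basement membranes, had intensities of 5799, 5438, 4456 and 4180 in the Nd2-mutant mice. In control mice 15, 16, 17 and 37 it had 4477, 4698, 5012 and 5101. The controls lay within the range of the mutants, in which both males were higher than both females. The strains differed by 0.03 on the log2 scale (SE 0.15, 95% confidence interval -0.30 to 0.36, limma adjusted p = 0.957).

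Osteomodulin (Omd), a class II member known from bone and tooth, was detected on 3 arrays of each strain and was therefore not tested. Its intensity was 36.3, 11.6, 11.5 and 20.8 in the Nd2-mutant mice and 47.6, 5.64, 16.05 and 15.5 in control mice 15, 16, 17 and 37. The highest value was that of a control and so was the lowest, with means of 20.04 ± 11.7 and 21.2 ± 18.3.

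Osteoglycin (Ogn, also called mimecan), a class III member, was measured by 3 probes. The brightest, ILMN_2859613, had intensities of 1811, 644, 434 and 1292 in Nd2-mutant mice 28, 32, 34 and 35 and of 754, 451, 854 and 804 in control mice 15, 16, 17 and 37. Mutant mice thus held both the 2 highest values and the lowest, and the SD was 628 in mutants against 181 in controls. The log2 difference was 0.37 (SE 0.40, 95% confidence interval -0.52 to 1.25, limma adjusted p = 0.793). The other probes, ILMN_2859619 and ILMN_2740622, were each detected on 7 arrays and had log2 differences of 0.36 (SE 0.35) and 0.40 (SE 0.29), with overlap. Mouse 28 was the highest for all 3 Ogn probes, with 102 and 69.7 on the dimmer ones. Without it the log2 differences of ILMN_2859613, ILMN_2740622 and ILMN_2859619 were 0.036, 0.17 and -0.022. That of ILMN_2740622 was also low, at 0.16, without control mouse 16, in which this probe was lowest (8.63) and not detected. The Ogn differences thus rested on mouse 28 and, for ILMN_2740622, on mouse 16 as well.

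Podocan (Podn), a class V member first described in kidney, had intensities of 85.6, 54.2, 33.3 and 150 in the Nd2-mutant mice. In control mice 15, 16, 17 and 37 it had 406, 59.1, 52.7 and 50.2. A single control, mouse 15, whose array also stood apart over all probes, exceeded every other mouse, while the other 3 controls lay within the range of the mutants. The log2 difference was -0.33 (SE 0.58, 95% confidence interval -1.61 to 0.96, limma adjusted p = 0.870), and without mouse 15 it was 0.32. The direction for Podn rested on this mouse.

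**Figure D2:**
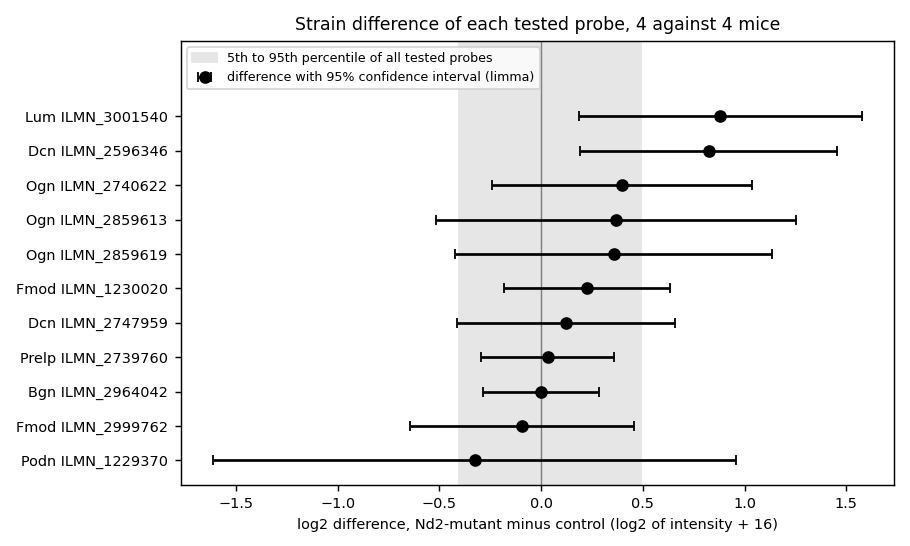
Log2 difference between Nd2-mutant and control mice (horizontal axis, log2 of intensity + 16) of the 11 tested member probes, as points with 95% confidence intervals from limma, 4 against 4 mice. The grey band runs from -0.41 to 0.49, the 5th to the 95th percentile of all tested probes, and the points of Lum and Dcn ILMN_2596346 lie to the right of it, with intervals that do not reach 0.

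Over the 11 tested probes, 9 had a positive difference, where 50.2% of all tested probes did. In limma 2 member probes, Dcn ILMN_2596346 and Lum, had an unadjusted p under 0.05, both being higher in Nd2-mutant mice. Among all 10414 probes 7.63% had such a p, 4.5% higher and 3.13% lower in Nd2-mutant mice. The same 2 probes were the only member probes without overlap between the strains, against 4.37% of all probes, 2.24% higher and 2.13% lower. After adjustment 0 member probes and 0 of all probes passed, which is 0% of those tested. The median log2 difference was 0.23 over the member probes and 0.00 over all tested probes, but with 1 probe for each gene it was 0.03 over 7 members and -0.02 over 8003 genes. With 1 probe for each gene, 5 of 7 members had a positive difference, against 3716 of 8003 genes. Only 1 member, Lum, then had an unadjusted limma p under 0.05 and no overlap, against 6.81% and 4.17% of these genes. Probes of 1 gene are not independent of each other, and 5 of the 9 positive values came from the probes of Ogn and Dcn. Those of Bgn and Prelp were only 0.0001 and 0.03. With the methods' t-test 0 member probes had an unadjusted p under 0.05, against 6.7% of all probes, and 0 passed after adjustment, against 0.0096% of all probes.

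The mice differed from each other in most members, and not in the same way. Control mouse 16 was below the mean in 9 of 11 tested probes and was the lowest mouse in 4 of them, but it was the highest for Fmod ILMN_2999762. Mutant mouse 28 was the highest in 4 probes, among them all 3 Ogn probes, and mutant mouse 34 was the lowest in 3 and the highest in 3. Among the 21 pairs of the 7 tested members, with 1 probe each, 10 had a positive correlation over the 8 mice, with a median r of -0.05 and a range of -0.85 to 0.75. Correlations between members were thus of both signs.

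**Figure D3:**
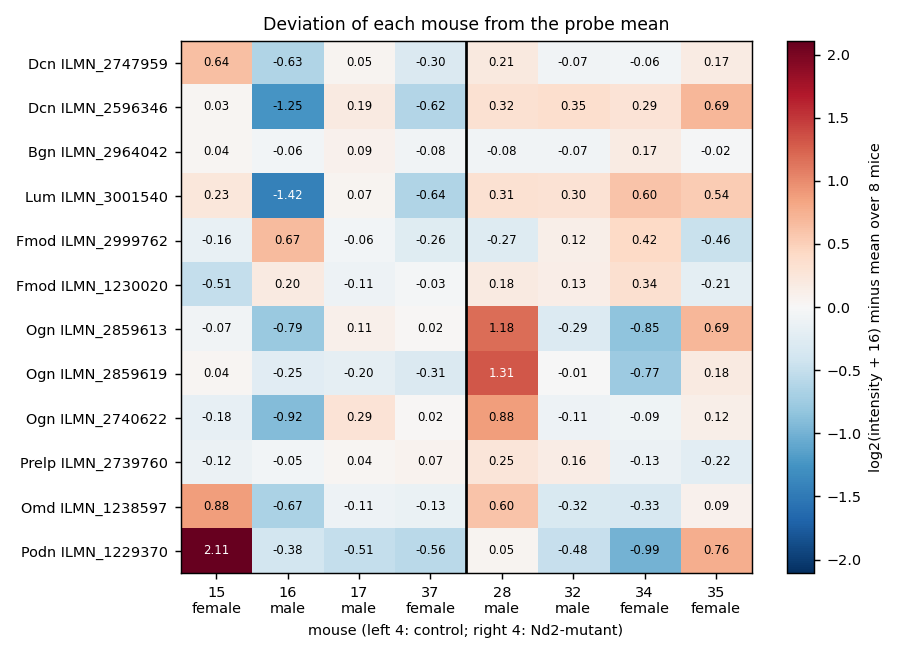
Deviation of each mouse from the mean over all 8 mice (log2 of intensity + 16, colour scale from blue, below, to red, above) for 12 member probes, with the 4 control mice on the left of the black line and the 4 Nd2-mutant mice on the right. Mouse 16 shows -1.42 for Lum and -1.25 for Dcn ILMN_2596346 but 0.67 for Fmod ILMN_2999762, and mouse 15 shows 2.11 for Podn.

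With 1 probe for each gene, the highest correlation between members was that of Dcn ILMN_2747959 with Podn (r = 0.75), followed by the same probe with Lum (r = 0.74), its neighbour on chromosome 10. Over 8 mice the log2 values of Dcn ILMN_2596346 and Lum correlated with r = 0.97 and a Spearman's rho of 0.81, and after each strain had been centred on its mean with r = 0.94. Of the 10413 other tested probes, Lum ranked 2 by its correlation with this Dcn probe. Without mice 16 and 37, which were farthest from the median, r was 0.61, so that the size of the correlation rested on these mice. For ILMN_2747959 Lum ranked 359, and r was 0.87 within strains. On chromosome 13, Ogn ILMN_2859613 and Omd correlated with r = 0.65, although Omd was close to the detection limit, and on chromosome 1 Fmod ILMN_2999762 and Prelp had r = -0.08. The strongest opposed pair was Ogn ILMN_2859613 and Fmod ILMN_2999762, with r = -0.85, rho of -0.88, and r = -0.94 without mice 28 and 34. These values describe 8 arrays that share 1 normalization, and no test was made on them.

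**Figure D4:**
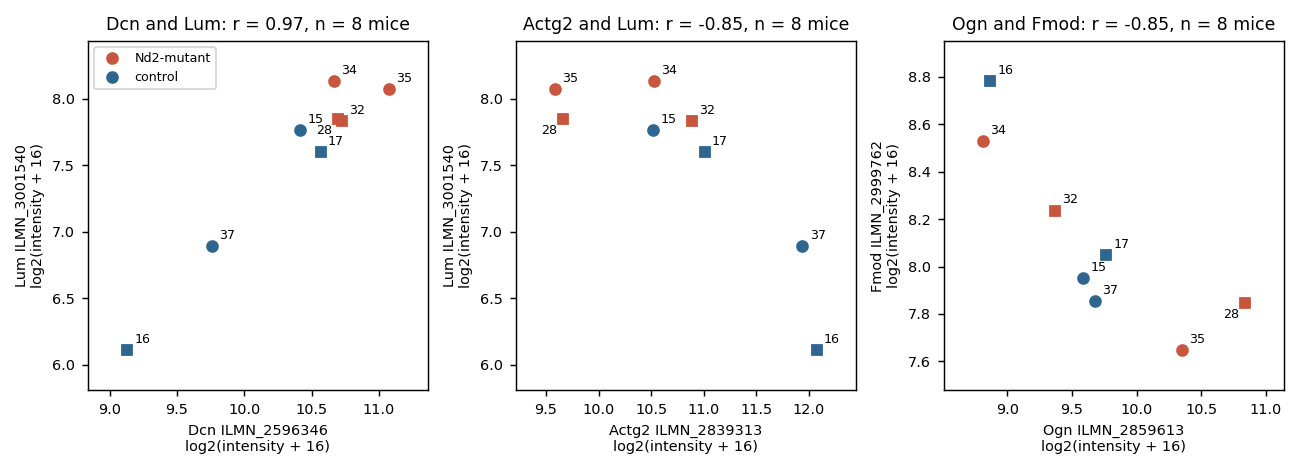
Each panel plots log2(intensity + 16) of 2 probes in 8 mice (red Nd2-mutant, blue control, squares male, circles female, numbers are mice): Dcn against Lum (r = 0.97), Actg2 against Lum (r = -0.85) and Ogn against Fmod (r = -0.85). In the first 2 panels control mice 16 and 37 lie far from the others, and in the third the mice of both strains are spread along the trend.

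Male and female mice did not differ in any member at an unadjusted p under 0.05 when strain was included in limma, whereas 8.31% of all probes did and 0.0192% passed after adjustment. The log2 difference for Dcn ILMN_2596346 was 0.86 in males and 0.78 in females, and for Lum it was 0.99 and 0.78. Within each sex 2 mutants lay above 2 controls, which follows from the separation over all 8 mice. In the fit over all mice, the strain by sex interaction likewise had no member at an unadjusted p under 0.05, against 1.77% of all probes and 0.0096% after adjustment. For Prelp the mice of each sex moved in opposite ways. It was higher by 0.21 (log2) in mutant males, each of which was above both control males, and the difference was -0.15 in females, in which both mutants were below both controls. With so few mice in each sex, lack of overlap is common among all probes, as given below for males alone. The interaction was 0.36 (SE 0.27, unadjusted p = 0.226 and adjusted p = 0.9999 in limma), so that the sexes were not shown to differ. The unadjusted p in limma was 0.0227 on the linear scale and 0.0311 without a detection filter, with adjusted p of 0.9998 and 0.982. For Ogn ILMN_2859613 the difference was 0.78 in males and -0.05 in females, with an interaction of 0.83 (SE 0.84).

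Other members of the family were mostly not detected in these fibroblasts. Of 8 further genes (Kera, Epyc, Optc, Podnl1, Chad, Nyx, Tsku and Ecm2), 2 were tested. Tsukushi (Tsku), an inhibitor of BMP signalling, had intensities of 55.0 ± 14.4 in Nd2-mutant and 61.3 ± 16.9 in control mice, with a log2 difference of -0.11 (SE 0.21, limma adjusted p = 0.873). Podnl1, the podocan-like gene, had 13.5 ± 1.22 and 13.5 ± 8.74 and a log2 difference of 0.04 (SE 0.20). Neither differed beyond the spread between mice.

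The enzymes that build and sulfate glycosaminoglycan chains, on which the function of most members depends, showed no common direction. Of 17 tested genes 10 had a positive and 7 a negative difference, with a median of 0.02, and 2 had an unadjusted p under 0.05, both higher in Nd2-mutant mice. With 1 probe for each gene, 6.81% of all 8003 genes had such a p. B4galt1, a galactosyltransferase of the Golgi, had 671 ± 67.2 in mutants and 528 ± 44.8 in controls, without overlap (log2 difference 0.33, SE 0.14, limma adjusted p = 0.639). Chst2, a sulfotransferase of N-acetylglucosamine residues, had 195 ± 45.7 and 133 ± 39.2, with overlap (0.51, SE 0.22). Chpf, which takes part in chondroitin chain polymerisation, had 87.3 ± 11.1 in mutants and 135 ± 49.97 in controls, with overlap (-0.49, SE 0.23). All 3 had an adjusted p of 0.639.

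Collagens that these proteoglycans bind had differences of both signs, and none passed the test. Of 10 tested genes 7 had a positive and 3 a negative difference, with a median of 0.08 and 0 genes at an unadjusted p under 0.05. The 3 with the smallest p were Col5a2 (-0.24, SE 0.13), Col1a2 (-0.30, SE 0.19) and Col14a1 (0.37, SE 0.28). Col5a2, a chain of the type V collagen that starts fibrils, had 79.8 ± 9.45 in Nd2-mutant and 96.7 ± 3.10 in control mice, the only gene of this list without overlap, where 4.17% of all genes with 1 probe each did not overlap. For Col5a2 the highest mutant (92.67) was close to the lowest control (92.78). Col1a2, a chain of type I collagen, had 1733 ± 276 and 2153 ± 535, with overlap.

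Among 9 tested receptors of the family, 5 had a positive and 4 a negative difference, with a median of 0.17, and 1 had an unadjusted p under 0.05. This was Cd44, a cell surface glycoprotein that binds hyaluronan and other matrix components, with 1258 ± 298 in Nd2-mutant and 1794 ± 156 in control mice, without overlap (log2 difference -0.53, SE 0.18, limma adjusted p = 0.639). For Cd44 the highest mutant (1537) was close to the lowest control (1561). P2rx4, an ATP-gated channel, and Igf1r, the receptor of insulin-like growth factor, had log2 differences of 0.38 (SE 0.20) and 0.23 (SE 0.14), with overlap.

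Of 8 growth factors that decorin, biglycan and related members bind, 5 were tested, while Tnf, Bmp2 and Mstn were detected on 0 arrays. All 5 tested genes had a negative difference, where 53.6% of all genes with 1 probe each did, and their median was -0.59. An unadjusted p under 0.05 was found for 3 of them, against 6.81% of all genes. Bmp4, a bone morphogenetic protein, had 17.7 ± 7.38 in mutants and 75.9 ± 37.9 in controls, without overlap (-1.37, SE 0.30, limma adjusted p = 0.639). Tgfb3 had 286 ± 26.9 and 447 ± 118 (-0.59, SE 0.19), and Tgfb2 had 20.2 ± 9.57 and 49.2 ± 21.3 (-0.82, SE 0.27), each with overlap between the strains. Bmp4, Tgfb2, Tgfb3, Cd44 and Col5a2 also stand in a gene table that the study drew from these same arrays, so that their direction here is no independent evidence. After adjustment 0 of the 5 genes passed.

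Of 8 tested proteases and their helpers that process or cleave these proteoglycans, 2 had a positive and 6 a negative difference, with a median of -0.32 and 0 genes at an unadjusted p under 0.05. Pcolce2 and Pcolce, enhancers of procollagen C-proteinase, had opposite signs, with log2 differences of -0.48 (SE 0.25) and 0.26 (SE 0.16). Adamts4, an aggrecanase, had -0.32 (SE 0.22). The values of these 3 genes overlapped between the strains.

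**Figure D5:**
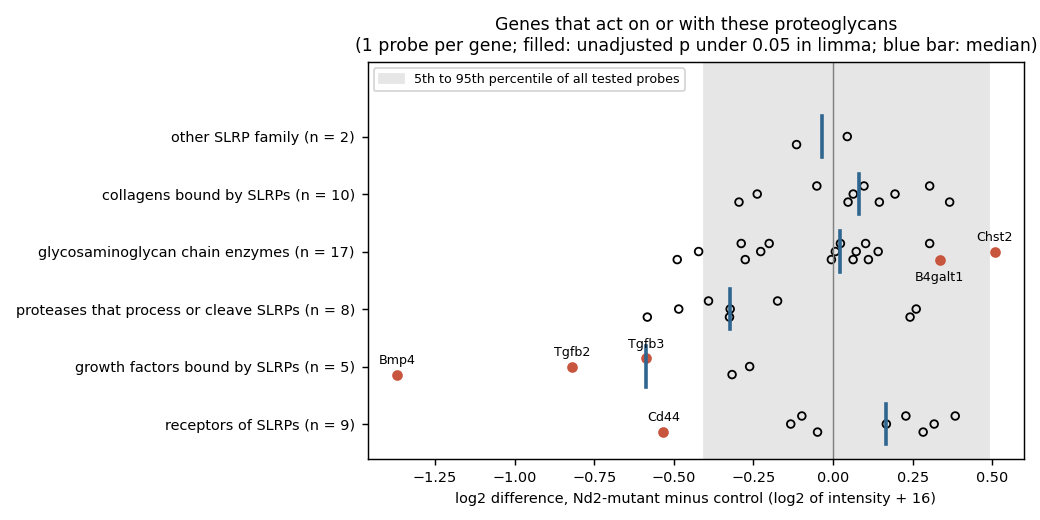
Log2 difference between Nd2-mutant and control mice (horizontal axis, log2 of intensity + 16) of tested genes that belong to or act with this family, 1 probe for each gene, as 1 point per gene in 6 lists, filled where the unadjusted limma p was under 0.05, with the list median as a blue bar. The 5 growth factors all lie to the left of 0, with a median of -0.59, while the other medians run from -0.32 to 0.17.

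Markers of other cell types were followed because fibroblast cultures can hold other skin cells and because fibroblasts can take on smooth muscle genes. The summed intensity of 8 smooth muscle and pericyte markers was 12487 to 15143 in Nd2-mutant and 15575 to 17638 in control mice, without overlap. Most of this sum was Acta2, whose strains overlapped (-0.15, SE 0.15), and without it the sums were 1208 to 2866 and 2254 to 5623, with overlap. All 6 tested genes of this list had a negative difference, and 3 had an unadjusted p under 0.05, against 6.81% of all genes with 1 probe each, namely Actg2 (-1.22, SE 0.39), Cspg4 (-0.54, SE 0.18) and Myh11 (-1.06, SE 0.37). Actg2 and Cspg4 stand in the study's gene table too. Cnn1 and Rgs5, which mark smooth muscle cells and pericytes, were detected on 0 arrays. Actg2, an actin of smooth muscle, had 4299 in control mouse 16 and 3911 in control mouse 37, the same mice that were lowest for Lum and Dcn ILMN_2596346, and at most 2048 in every other mouse. Its correlation over 8 mice was r = -0.85 with Lum and r = -0.87 with this Dcn probe, and -0.70 and -0.75 within strains. Without mice 16 and 37 it was -0.52 and -0.62. Counted from the most positive correlation with Actg2, Lum ranked 10317 and this Dcn probe 10350 of the 10413 other tested probes. The other tested genes of this list differed in their order of mice. Tagln was also highest in mice 16 and 37 (1112 and 933), and Cspg4 in mice 37 and 15 (58.9 and 52.2). Myh11 and Des were highest in control mouse 15 (227 and 136), and Acta2 in mouse 16 was the lowest control (11596). The part of these genes in the difference for Lum and Dcn was not tested.

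Of 11 tested fibroblast markers 5 had a positive and 6 a negative difference, and the 3 with the smallest p were Vim (0.44, SE 0.21), Pdgfra (0.39, SE 0.23) and Col1a2 (-0.30, SE 0.19), all with overlap. 8 endothelial markers summed to 166 to 303 in Nd2-mutant and 279 to 759 in control mice, with Kdr detected on 0 arrays. Of 5 tested, 4 had a negative difference, and Emcn (-1.20, SE 0.27), a sialomucin of endothelium, and Plvap (-1.01, SE 0.30), a protein of endothelial fenestrae, had an unadjusted p under 0.05 and no overlap, against 6.81% and 4.17% of all genes. Both separations were narrow, with a highest mutant of 124.3 and a lowest control of 125.4 for Emcn, and 72.6 and 73.0 for Plvap. Plvap is also in the study's table, and so probably is Emcn, whose symbol could not be read with certainty in the text used here. Tek, an endothelial receptor, went the other way (0.49, SE 0.33), with overlap. 10 macrophage markers summed to 304 to 1712 in mutants and 249 to 596 in controls, with Ptprc, which defines leukocytes, detected on 0 arrays. Mouse 35, the highest mutant for Dcn ILMN_2596346, had the highest sum, with 344 for Lyz2, 145 for Cd68, 212 for C1qb and 673 for Laptm5. The 3 macrophage markers with the smallest p were Lyz2 (1.24, SE 0.58), C1qb (1.08, SE 0.54) and Cd68 (0.68, SE 0.48), all with overlap. Sums of keratinocyte markers (199 to 1187 and 325 to 966), adipocyte markers (24.7 to 160 and 24.6 to 76.3) and chondrocyte and tendon markers (107 to 162 and 105 to 181) overlapped between Nd2-mutant and control mice. The tested genes of these lists were the keratins Krt10 (0.27, SE 0.14) and Krt14 (-1.25, SE 0.77), Pparg (0.29, SE 0.44) and Sox9 (0.34, SE 0.20), all with overlap. Col2a1, Acan and Matn1, which define chondrocytes, were detected on 0 arrays. The part of these cell types in the members' values was not tested.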

How the data were processed

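Skin fibroblasts of 4 Nd2-mutant and 4 control mice were hybridised to beadchips (Illumina MouseRef-8 v2.0). The authors used GenomeStudio for extraction, quantile normalization and background subtraction, and the deposited intensity values are linear, between -12.3 and 13935. Each deposited detection p-value also came from the authors' software. Both deposited tables, 1 of them named as non-normalized, hold identical bytes, so that the normalization could not be changed here. Negative intensities were set to 0, 16 was added and log2 taken. Probes with a detection p-value under 0.01 on all 4 arrays of 1 strain (10414 of 25697) were fitted with limma 3.58.1 in R 4.3.3, 2-sided, and p-values were adjusted over all of them by Benjamini-Hochberg. Single probes were tested by exact permutation (70 arrangements). Sex was tested with strain as a term, and then the interaction. The steps were tested on simulated data.

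Strain, sex and mouse number came from the labels. Members and gene lists were chosen with earlier results of these data known. Every member probe is reported, every tested gene of the other family members, and the 3 genes with the smallest p of each further list. The 5 genes most like the members by mean correlation, and markers of a cell type in which 1 mouse stood apart, are also reported. List genes outside this rule are given only in counts, except those that describe a marker result. A list gene was represented by its brightest tested probe. Alternatives were 1 or 50 added before log2, the linear scale, other detection filters, the methods' t-test, a trend in eBayes, array weights, sex as a term, each sex alone and leaving out each mouse. Leaving out control mice 15 and 16 together was added after seeing the data. No array detected more than 44.2% of its probes, and the number of arrays limits the precision. Promoter sequences and neighbours came from RefSeq tables for GRCm38.p6. The build behind the probe annotation is not given in the sources used here.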

Additional observations from a re-analysis of the deposited data

Results flagged for a closer look

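In groups of 4 mice, a value was noted where its gap to the nearest other value, divided by the range of the group, exceeded Dixon's critical value for 4 values at the 95% level. This was so in 3 of 40 groups examined (13 member probes and 7 summed marker lists in 2 strains), where chance gives about 1 in 20. For Dcn ILMN_2596346 in Nd2-mutant mice the ratio was 0.855, set by mouse 35 (2136, against 1609 to 1676 in the other 3). For Podn in control mice it was 0.932, set by mouse 15 (406, against 50.2 to 59.1). For the summed macrophage markers in Nd2-mutant mice it was 0.830, only just above the critical value, set by mouse 35 (1712, against 304 to 408). Values in brackets are linear intensities, whereas the ratios are of log2 values.

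Prelp went in opposite directions in the sexes, since both mutant males were above both control males and both mutant females below both control females. Lack of overlap within a sex was common among all probes, as given below for males alone. The share of probes with opposite directions was not computed. The interaction was 0.36 on the log2 scale, with an unadjusted p of 0.226 and an adjusted p of 0.9999 in limma, so that a difference between the sexes was not shown. On the linear scale and without a detection filter the unadjusted p was 0.0227 and 0.0311, with an adjusted p of 0.9998 and 0.982.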

How the results depend on the processing

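Each member probe was recomputed under 21 alternatives, 1 of them added after seeing the data. Of 229 values 204 kept their direction and 25 did not, and the smallest adjusted p of any member was 0.272. Dcn ILMN_2596346, Lum, Fmod ILMN_1230020 and Ogn ILMN_2740622 kept their direction throughout. For the first 2 no alternative could change the direction or give overlap, since all mutants lay above all controls. The number of member probes at an unadjusted p under 0.05 was 2, with a range of 2 to 3 when a mouse was left out. It was 0 with the methods' t-test, 0 in males alone and 0 in females alone, each with 4 mice. Without overlap there were 2 member probes, and 5 in males alone, where 3858 of 10919 probes did not overlap. Over all probes, 0 had an adjusted p under 0.05, but 3 did without a detection filter and 1 with the methods' t-test. Those at an unadjusted p under 0.05 were 795, but 474 without mouse 28, 436 without mouse 16 and 1467 without mouse 17.

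Opposite directions were seen as follows, and the cause was not tested. With array weights, Fmod ILMN_2999762 had 0.043, Podn 0.12 and Prelp -0.013. In males alone Bgn had -0.093 and Podn 0.23. In females alone Dcn ILMN_2747959 had -0.11, Fmod ILMN_2999762 0.19, Ogn ILMN_2859613 -0.051, Ogn ILMN_2859619 -0.16 and Prelp -0.15. Without control mice 15 and 16 together Bgn had -0.0052, Fmod ILMN_2999762 0.11, Podn 0.37 and Prelp -0.038. With 1 mouse left out the log2 difference ranged from -0.056 to 0.031 for Bgn, -0.068 to 0.35 for Dcn ILMN_2747959, -0.25 to 0.11 for Fmod ILMN_2999762, -0.022 to 0.67 for Ogn ILMN_2859619, -0.64 to 0.32 for Podn and -0.047 to 0.11 for Prelp. The interaction then ranged from -0.64 to 0.80 for Dcn ILMN_2596346, -0.0041 to 0.93 for Dcn ILMN_2747959, -0.50 to 0.055 for Fmod ILMN_1230020, -0.53 to 0.95 for Lum and -0.21 to 2.46 for Podn. The unadjusted limma p of the interaction was under 0.05 for Ogn ILMN_2859619 without mouse 32 (0.0150), and for Dcn ILMN_2747959 (0.0475) and Podn (0.0132) without mouse 37. On the linear scale the interaction was -136 for Dcn ILMN_2596346 and -9.42 for Lum, in intensity units.

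No paired analysis was possible because no mouse number occurs in both strains. Other normalizations and a chip block were not run, since no non-normalized values and no chip names were at hand.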

Other observations

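Among 7996 tested genes outside the family, the 5 with the highest mean correlation with the 7 tested members over the 8 mice were Pcif1, Traf3, Abi3bp, 4933426M11Rik and Sec16a. Their mean r was 0.36 each, while r with single members ran from -0.69 to 0.93, so that none of these genes followed all members. Members were themselves opposed to each other, with r down to -0.85, so that no gene could follow all of them closely. Abi3bp, which codes for a matrix protein, had a log2 difference of 0.97 between Nd2-mutant and control mice (unadjusted p = 0.0796 and adjusted p = 0.639 in limma), and the other 4 had 0.02 to 0.10. Pcolce, a binder of procollagen that was chosen here after its values were seen, correlated with Lum with r = 0.96 over 8 mice and r = 0.76 without mice 16 and 37. Sf3b3 and Jak2 had a higher r with Lum over 8 mice (0.99 and 0.98), and Fzd1 and Olfml3 had about the same (0.96 each). The likeness to Lum was thus not particular to Pcolce.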
